A study of Mus musculus with 95 samples.

Results

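The transcripts of the T cell receptor's CD3 chains, of the CD4 and CD8 co-receptors and of the adhesion receptor CD2 were followed across mouse lung exposed or not exposed to Pneumocystis murina, the fungus that causes Pneumocystis pneumonia in mice. Members were the probe sets that the platform annotation pairs with a single one of 8 genes, Cd3d, Cd3e, Cd3g, Cd4, Cd8a, Cd8b1, Lck and Cd2. The rule found 8 probe sets for 7 of these genes, of 12487 probe sets in the table. Cd3d has 2 of them, and Lck, the kinase bound by CD4 and CD8, is not analysed here.

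The T cell receptor binds a peptide held by an MHC molecule but cannot signal alone. Its signal passes through the CD3 gamma, delta and epsilon chains and the zeta chain, whose cytoplasmic tails are phosphorylated by LCK. CD4 brings LCK to receptors that read MHC class II, and the CD8 alpha and beta chains do so for MHC class I. CD2 is an adhesion receptor of T and NK cells, which in mouse binds CD48. In the lung, CD4+ T cells are needed to clear Pneumocystis, and CD40 ligand, carried mainly by activated CD4+ T cells, is one of the signals they give to B cells, dendritic cells and macrophages.

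RNA of lung homogenates was read on 95 Affymetrix arrays in 19 groups of 2 to 10 arrays, 60 exposed and 35 unexposed, all from mice labelled female and 8 weeks old. Exposed mice were housed with a heavily infected seeder mouse. CD40L-KO mice, which lack CD40 ligand, gave exposed groups of day 32 (3 arrays), day 35 (4), day 39 (2) and day 75 (3), and unexposed groups of day 32 (3) and of experiment 4 (5 arrays, labelled day 14 and set here against day 35). C57BL/6 mice gave exposed groups of day 7 (8 arrays), 14 (8), 21 (6), 32 (3), 34 (10), 41 (10) and 75 (3), and unexposed groups of day 7 (4), 14 (6), 21 (5), 32 (2), 34 (5) and 41 (5). Cages held either exposed or unexposed mice, and no label ties an array to a cage. At day 32 each condition had a single cage, so the effects of cage and of exposure cannot be told apart there. The same holds for cage and strain, unless the strains shared a cage.

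The labelled tissue fitted its markers: Sftpc, the surfactant protein of alveolar type II cells, read at least 5323 on every array, and Scgb1a1 of club cells at least 4637. Cd40lg, the deleted gene, was below an intensity of 8 on all 95 arrays, C57BL/6 included (0.295 to 5.46), and so does not check the strain labels. The Y-linked Eif2s3y read 43.1 to 122 on the 17 arrays of 5 groups (exposed CD40L-KO of days 35, 39 and 75, unexposed CD40L-KO labelled day 14, exposed C57BL/6 of day 75) and 0.329 to 10.96 on the other 78, and Xist read 1.04 to 13.7 and 107.7 to 789 on the same sets, although all are labelled female. Squamous epithelium transcripts such as Krt13 stood out on 16 arrays, whose mean log2 level over 9 measured markers was 6.78 or more, against at most 5.26 on the rest. Those arrays included 3 of 10 exposed and 4 of 5 unexposed arrays of C57BL/6 day 34, and 1 of 3 exposed and 2 of 3 unexposed arrays of CD40L-KO day 32. The other 6 were in C57BL/6 days 7, 14 and 21 and in the CD40L-KO group labelled day 14.

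Levels are the deposited intensities, and differences are on the scale of log2(intensity + 8). On that scale the change of dim probe sets comes out too small. Genes were not compared with each other in level, because each probe set has its own brightness. Over all 95 arrays Cd2 (Entrez 12481, chromosome 3) read 17.8 to 161.5, Cd3e (Entrez 12501, chromosome 9) 8.55 to 308, and Cd3d (Entrez 12500, chromosome 9) 7.03 to 91.3. Cd3g (Entrez 12502, chromosome 9) spanned 3.56 to 224, Cd4 (Entrez 12504, chromosome 6) 6.22 to 172, and Cd8b1 (Entrez 12526, chromosome 6) 2.60 to 120.4. Cd8a (Entrez 12525, chromosome 6) was dim, from 1.17 to 46.0 and below 8 on 21 arrays. The second Cd3d probe set was below 8 on every array (0.0139 to 6.88), and its difference never passed the test, so below Cd3d means the brighter one unless the second is named.

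The 3 CD3 genes lie in a cluster on chromosome 9, and their promoters are shown because Cd3d and Cd3g, called in the most comparisons of the members, and Cd3e are these neighbours. Cd3g and Cd3d are transcribed away from each other from start sites 1355 bases apart, and the Cd3e start lies 27825 bases beyond that of Cd3d. The sequences are RefSeq's, build GRCm38.p6, from 250 bases before to 50 bases after the start, written 5′ to 3′ on the gene's strand, with matches to 5 motifs in capitals: Cd3g at chr9:44980382-44980681 (minus strand), Cd3d at chr9:44981536-44981835 (plus strand) and Cd3e at chr9:45009562-45009861 (minus strand).
Cd3g: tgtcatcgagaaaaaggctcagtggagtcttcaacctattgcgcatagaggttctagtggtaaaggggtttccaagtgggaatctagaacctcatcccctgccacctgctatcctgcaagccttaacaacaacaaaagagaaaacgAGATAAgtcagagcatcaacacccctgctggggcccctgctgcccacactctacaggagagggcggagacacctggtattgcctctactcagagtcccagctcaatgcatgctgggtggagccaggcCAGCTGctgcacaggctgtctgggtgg
Cd3d: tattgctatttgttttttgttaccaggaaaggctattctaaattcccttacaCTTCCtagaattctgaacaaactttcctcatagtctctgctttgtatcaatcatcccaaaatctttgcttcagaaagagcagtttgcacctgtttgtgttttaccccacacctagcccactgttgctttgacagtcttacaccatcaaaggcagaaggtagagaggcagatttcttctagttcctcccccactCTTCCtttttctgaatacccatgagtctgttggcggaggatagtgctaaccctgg
Cd3e: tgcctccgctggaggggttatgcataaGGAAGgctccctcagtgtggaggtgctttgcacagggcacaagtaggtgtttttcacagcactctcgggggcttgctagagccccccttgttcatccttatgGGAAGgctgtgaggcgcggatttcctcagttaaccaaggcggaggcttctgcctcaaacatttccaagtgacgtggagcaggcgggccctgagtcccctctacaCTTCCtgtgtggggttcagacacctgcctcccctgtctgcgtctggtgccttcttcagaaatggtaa
Motifs were searched on both strands, and no match overlapped another. The core site of ETS factors, GGAAG, has 2 matches in Cd3d and 3 in Cd3e, and 71.4% of the 32851 promoters of this length in the table also hold it. A GATA factor site, AGATAA, is present in Cd3g and in 11.2% of promoters. Cd3g also holds an E box, CAGCTG, found in 16.3% of promoters. The core site of RUNX factors, TGTGGT, was in none of the 3 windows and in 16.8% of promoters. The TATA box, TATAAA, was likewise in none of them and in 13.6% of promoters.

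**Figure D1:**
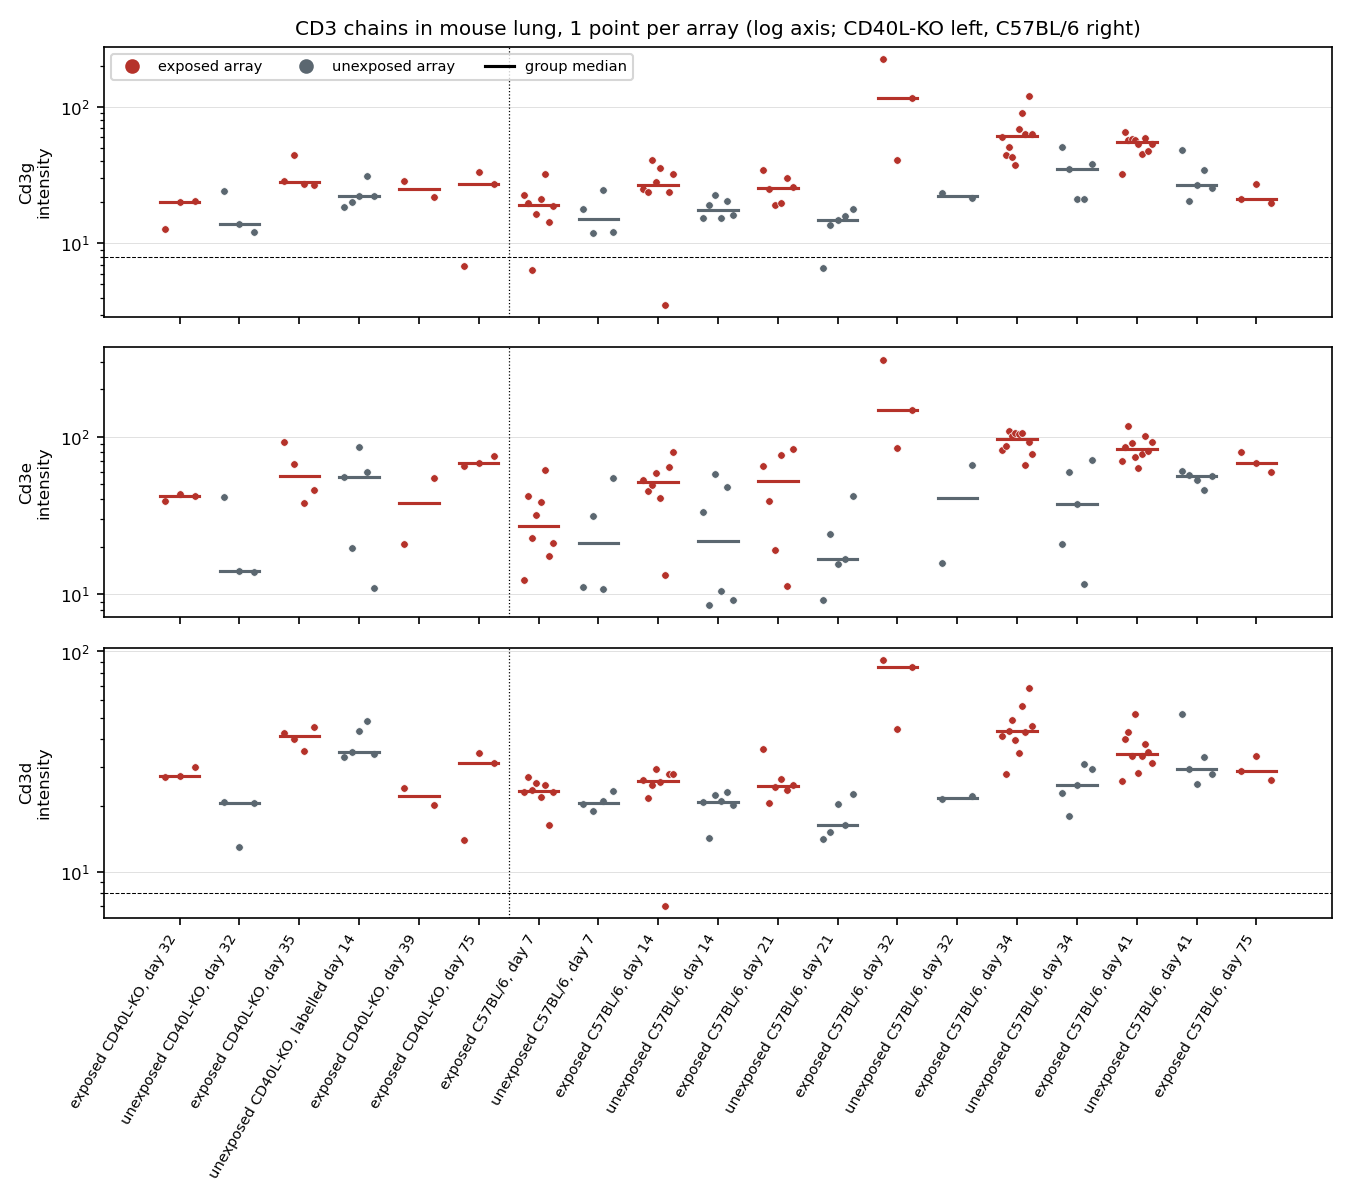
Intensity of Cd3g, Cd3e and Cd3d (log axes) on each of the 95 arrays in the 19 groups, exposed in red and unexposed in grey, with group medians as bars and an intensity of 8 as a dashed line where values reach it. Exposed C57BL/6 lungs of day 32 hold the highest array of each gene, 224 for Cd3g, 308 for Cd3e and 91.3 for Cd3d.

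In C57BL/6 lungs of day 32, all 3 CD3 chains, Cd4, Cd8a, Cd8b1 and Cd2 were higher on every exposed array than on either unexposed array, and Cd3d passed the test. Cd3d, the delta chain, read 91.3, 44.6 and 84.7 on the exposed arrays and 21.4 and 22.1 on the unexposed ones. The unexposed pair was nearly level and every exposed array lay above it, and the fitted difference was 1.40 ± 0.26 (SE) with a limma adjusted p of 0.034. Cd3g, the gamma chain, read 224, 40.7 and 115.6 on exposed and 23.4 and 21.4 on unexposed arrays, a difference of 1.88 ± 0.50 (limma adjusted p = 0.108). Cd3e, the epsilon chain, read 308, 85.4 and 147.5 against 15.7 and 65.7, a difference of 1.99 ± 0.57 (limma adjusted p = 0.127). These differences exceeded that of Cd3d, but exposed replicates spread widely, with replicate 1 highest and replicate 2 lowest for all 3 chains.

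The co-receptors were likewise higher on all 3 exposed arrays, without passing the test. Cd4 read 119.9, 65.9 and 84.0 on exposed and 37.6 and 48.4 on unexposed arrays, a difference of 0.91 ± 0.40 (limma adjusted p = 0.31). Cd8a, the alpha chain, read 46.0, 16.3 and 28.1 on exposed arrays and stayed below 8 on both unexposed ones, at 6.68 and 5.64 (1.35 ± 0.36, limma adjusted p = 0.105). Cd8b1, the beta chain, read 54.6, 35.8 and 112.4 on exposed and 28.7 and 25.5 on unexposed arrays (0.98 ± 0.35, limma adjusted p = 0.209). Replicate 2 was again the lowest exposed array for all 3 co-receptor genes. Cd2 had the smallest difference of the 7 genes, 0.67 ± 0.32, with 142, 72.2 and 101.8 on exposed and 61.4 and 60.6 on unexposed arrays.

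In this comparison 1 of 8 member probe sets was called, higher, against 1.22% of 12421 probe sets called in either direction and 1.04% called higher. Groups did not overlap for 7 of 8 members, all higher when exposed, against 16.4% of all probe sets. The members' median difference was 1.17, against -0.00 over all probe sets. With 3 arrays against 2, the Cd3d call was lost when any of 4 arrays was left out (limma adjusted p from 0.105 to 0.234), and without exposed replicate 2 there were 5 called members. It was also lost with an offset of 2 (difference 1.60, on another scale), with a replicate block (1.32), and with the squamous score (1.41) or the Gapdh 3′ to 5′ ratio (1.42) as a covariate. The same held with squamous CD40L-KO arrays left out of the fit (1.40), and limma adjusted p ran from 0.0525 to 0.117 over these settings. With any of the 4 arrays left out the difference was 1.23 to 1.42. As a change in the number of T cells and a change in RNA per T cell give the same signal in whole lung, bulk values cannot tell these apart here or below. Macrophage and dendritic cell markers, which matter because some mouse dendritic cells carry Cd4 or Cd8a, moved with this comparison: their summed intensity over 10 genes was 1155 to 1940 on exposed and 812 to 880 on unexposed arrays, 1 of 10 was called higher, and their part in the result was not tested.

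CD40L-KO lungs of day 32 showed no such difference that passed the test. Cd3g read 12.7, 20.2 and 20.6 on exposed CD40L-KO arrays and 24.2, 13.9 and 12.1 on unexposed ones, a difference of 0.08 ± 0.45. Cd3e read 38.9, 43.0 and 42.2 against 41.6, 14.2 and 13.8 (0.77 ± 0.51), and Cd3d 26.9, 27.3 and 29.9 against 20.8, 12.9 and 20.5 (0.48 ± 0.23). Cd3d was the single member whose groups did not overlap, higher when exposed, against 14% of all probe sets. Cd4 differed by 0.02 ± 0.35, Cd8a by -0.38 ± 0.32, Cd8b1 by -0.27 ± 0.31 and Cd2 by 0.38 ± 0.29. None of 8 members was called by limma and none had an unadjusted p under 0.05, where 0.37% of all probe sets were called. The intervals leave room for sizeable differences: the 95% interval of Cd3e ran from -0.35 to 1.90 and that of Cd3g from -0.92 to 1.08.

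Set side by side, exposed lungs of the 2 strains differed at day 32. With a single cage per condition, cage and strain cannot be told apart here unless the strains shared a cage. The gamma chain transcript was lower in exposed CD40L-KO lungs, at 12.7 to 20.6, than in exposed C57BL/6 lungs, at 40.7 to 224, by 2.13 on the log2 scale (SE 0.45, limma adjusted p = 0.0425). Cd3d was also lower, at 26.9 to 29.9 in exposed CD40L-KO lungs against 44.6 to 91.3 in exposed C57BL/6 lungs, by 1.12 (SE 0.23, limma adjusted p = 0.0394). Cd3e differed by -1.75 ± 0.51, Cd4 by -1.25 ± 0.35, Cd8a by -1.21 ± 0.32 and Cd8b1 by -1.02 ± 0.31, with limma adjusted p from 0.0800 to 0.120, and Cd2 by -0.40 ± 0.29. Called members were 2 of 8, both lower, where 2.13% of all probe sets were called in either direction and 1.5% were called lower. Groups did not overlap for 6 members, all lower in CD40L-KO, against 8.78% of all probe sets. Both calls were lost when any exposed array other than C57BL/6 replicate 2 was left out (limma adjusted p from 0.0978 to 0.145), with an offset of 2 (0.0625 and 0.0628) and with the squamous score as a covariate (0.0654 and 0.0735). The differences stayed close, -2.42 for Cd3g and -1.27 for Cd3d with that offset, and -2.22 and -1.09 with the covariate. In the same arrays 2 of 9 B cell markers were called higher in CD40L-KO, with summed intensity 1158 to 1418 in CD40L-KO and 724 to 790 in C57BL/6. Of the macrophage and dendritic cell markers 1 of 10 was called lower, with 952 to 1021 in CD40L-KO and 1155 to 1940 in C57BL/6, and the part of either list was not tested.

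Without exposure no difference between the strains passed the test for any member. The 95% intervals were wide, from -1.80 to 0.73 for Cd3e and from -0.28 to 1.31 for Cd8a. None of 8 was called by limma in unexposed CD40L-KO against unexposed C57BL/6 lungs, none had an unadjusted p under 0.05, and 0.0483% of all probe sets were called. Cd4 (29.5 to 35.4 in CD40L-KO, 37.6 and 48.4 in C57BL/6) and Cd3d (12.9 to 20.8 in CD40L-KO, 21.4 and 22.1 in C57BL/6) were the 2 members without overlap, both lower in CD40L-KO, against 13.8% of all probe sets. The difference between the strains' exposure effects was largest for Cd3g, -1.80 ± 0.68 (limma adjusted p = 0.290), and Cd8a, -1.73 ± 0.48 (limma adjusted p = 0.177). That test called none of 8 members, with 4 of 8 at an unadjusted p under 0.05 and 0.153% of all probe sets called, so a difference in effect between strains was not shown by this fit. In 1 fit over all 95 arrays, Cd3g and Cd8a passed it (limma adjusted p of 0.0327 and 0.0140).

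**Figure D2:**
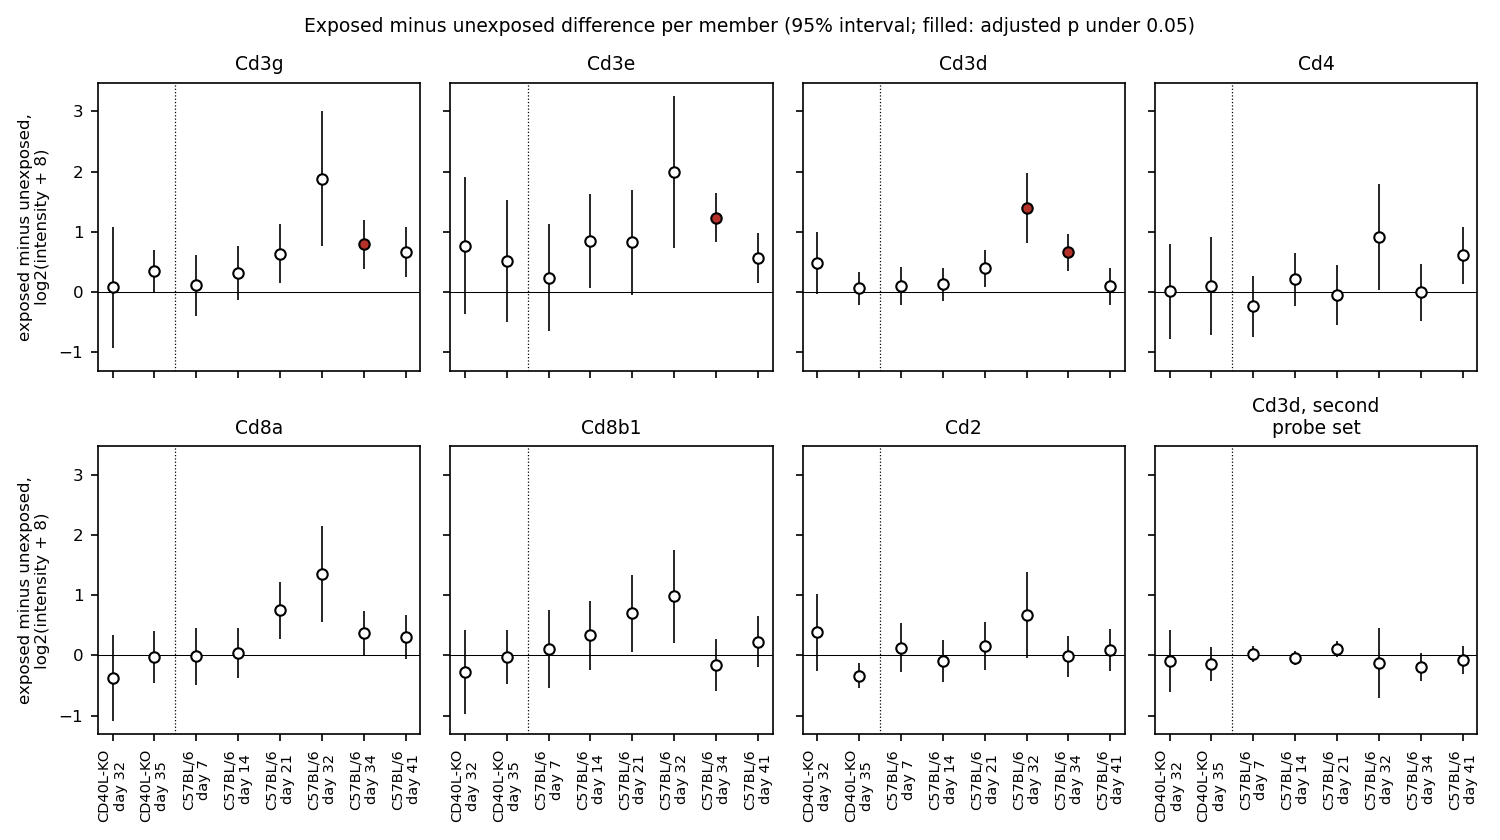
Exposed minus unexposed difference of each member on the log2(intensity + 8) scale for CD40L-KO (days 32 and 35) and C57BL/6 (days 7 to 41), with 95% intervals; red points passed an adjusted p of 0.05. In C57BL/6 the points of Cd3g lie between 0.11 (day 7) and 1.88 (day 32), and the filled points are Cd3d at day 32 and Cd3g, Cd3e and Cd3d at day 34.

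At C57BL/6 day 34, with 10 exposed and 5 unexposed arrays, the CD3 chains rose and the co-receptors were not called. Cd3e spanned 65.8 to 109.3 with a median of 96.7 on exposed arrays and read 21.0, 59.6, 37.3, 11.6 and 71.3 on unexposed ones. Of the exposed arrays, 9 of 10 lay above the highest unexposed array, and the difference was 1.24 ± 0.20 (limma adjusted p = 0.000143). Cd3g spanned 37.3 to 120.5 (median 61.7) on exposed arrays and read 51.1, 35.2, 21.2, 21.0 and 38.5 on unexposed ones, a difference of 0.79 ± 0.20 (limma adjusted p = 0.0148). Cd3d spanned 27.9 to 68.2 (median 43.4) against 22.9, 17.8, 24.7, 30.8 and 29.4 (0.66 ± 0.15, limma adjusted p = 0.0060), again with 9 of 10 exposed arrays above all unexposed ones. Every exposed array of the 3 chains lay above the unexposed mean.

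Cd4 differed by -0.00 ± 0.23 at day 34, with a 95% interval from -0.47 to 0.46 and medians of 65.6 on exposed and 48.1 on unexposed arrays, and Cd2 differed by -0.02 ± 0.17. Unexposed replicate 1 stood apart on both, with a Cd4 intensity of 171.8 where the other unexposed arrays read 38.4 to 72.0, and a Cd2 intensity of 161.5 where the others read 54.5 to 73.7. Without that array the difference was 0.33 for Cd4 (limma adjusted p = 0.379) and 0.22 for Cd2 (limma adjusted p = 0.439). It also had the highest Gapdh 3′ to 5′ log2 ratio of the group, 2.13, a sign of shortened RNA. Cd8a differed by 0.37 ± 0.18 (limma adjusted p = 0.225) and Cd8b1 by -0.16 ± 0.21 (limma adjusted p = 0.704).

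The test called 3 of 8 members, all higher, where it called 6.38% of all probe sets in either direction and 4.03% higher. None of 8 members had groups without overlap, and 1.08% of all probe sets did so in the higher direction. The median over members was 0.18, against -0.03 over all probe sets. Squamous arrays were unevenly spread over these groups, and the summed intensity of squamous markers over 9 genes was 261 to 8072 on exposed and 243 to 9808 on unexposed arrays. Leaving out the 16 arrays of high squamous score left 7 exposed and 1 unexposed array at day 34, and then no member was called: Cd3e differed by 0.40 (limma adjusted p = 0.671), Cd3d by 0.53 (0.707) and Cd3g by 0.54 (0.781). That fit takes the lone unexposed array to vary like the other groups. Leaving out only the 12 arrays with a score of 7 or more, Cd3e was still called (0.80, limma adjusted p = 0.0325), while Cd3g differed by 0.88 (0.240) and Cd3d by 0.63 (0.285). With the score as a covariate Cd3e stayed called (1.01), and Cd3d (0.57, limma adjusted p = 0.0542) and Cd3g (0.79, limma adjusted p = 0.0507) did not. The Gapdh ratio ran from -0.16 to 1.59 on exposed and 0.27 to 2.13 on unexposed arrays, and as a covariate it ended the call of Cd3d (0.59, limma adjusted p = 0.0806) but not of Cd3g or Cd3e. Without unexposed replicate 4, Cd3g was not called (0.68, limma adjusted p = 0.0622). Of the B cell markers 3 of 9 were called lower, with summed intensity 754 to 1366 on exposed and 1295 to 1819 on unexposed arrays. Of the macrophage and dendritic cell markers 2 of 10 were called higher (1007 to 1467 on exposed, 798 to 1417 on unexposed arrays), and the part of either list was not tested.

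**Figure D3:**
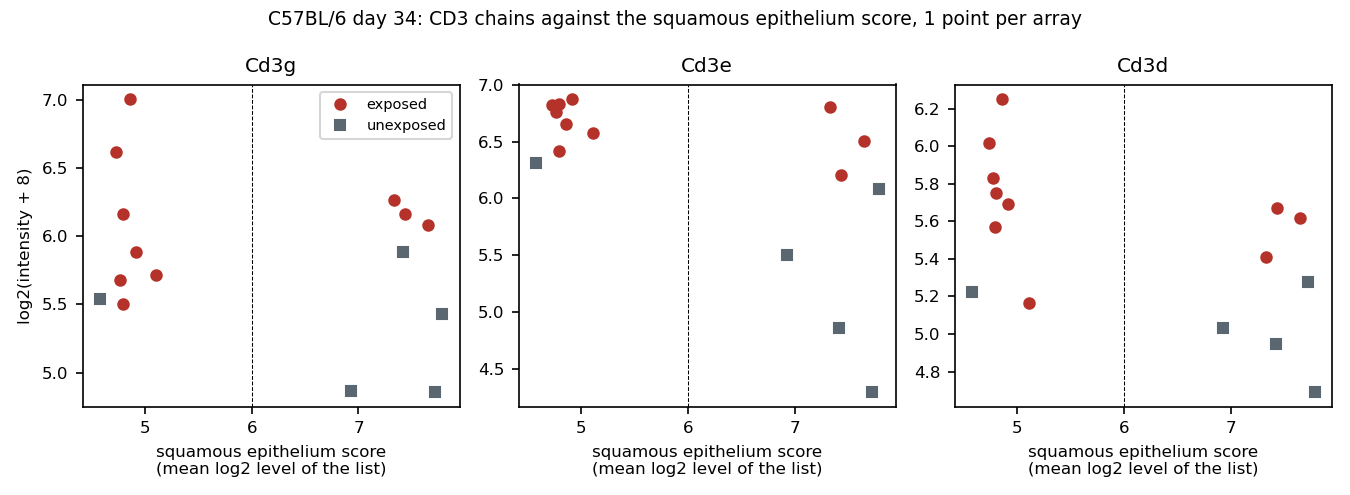
Level of Cd3g, Cd3e and Cd3d (log2(intensity + 8)) against the squamous epithelium score, the mean log2 level of 9 squamous markers, on the 10 exposed and 5 unexposed C57BL/6 arrays of day 34; the dashed line is a score of 6. The 7 exposed arrays left of the line span 77.3 to 109.3 in Cd3e intensity, and the single unexposed array there reads 71.3.

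At C57BL/6 day 41 no member was called by limma, 3 of 8 had an unadjusted p under 0.05, and 0.66% of all probe sets were called. Cd3e spanned 63.8 to 116 (median 83.5) on exposed arrays and read 60.7, 57.4, 52.9, 45.7 and 56.0 on unexposed ones. All 10 exposed arrays lay above all 5 unexposed ones, the single member to do so, against 0.789% of all probe sets, and the difference was 0.56 ± 0.20 (limma adjusted p = 0.360). No array of either group had a high squamous score. With the 7 squamous arrays of day 34 left out of the fit that both days share, Cd3e passed the test with the same difference (limma adjusted p = 0.0102).

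The other differences at day 41 were 0.66 ± 0.20 for Cd3g, 0.61 ± 0.23 for Cd4, 0.30 ± 0.18 for Cd8a, 0.22 ± 0.21 for Cd8b1, 0.10 ± 0.15 for Cd3d and 0.10 ± 0.17 for Cd2. Cd4 spanned 44.2 to 80.6 (median 71.3) on exposed and 18.3 to 72.4 (median 45.2) on unexposed arrays, and all 10 exposed arrays lay above the mean log2 level of the unexposed ones. The effect at day 41 was not shown to differ from that at day 34: none of 8 members was called by limma, 2 had an unadjusted p under 0.05, and 0.0564% of all probe sets were called. Cd3e (-0.67 ± 0.29) and Cd3d (-0.57 ± 0.21) had the smaller effects at day 41, and Cd4 the larger one (0.62 ± 0.32).

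In the early C57BL/6 series none of the 8 members was called by limma on any day. At day 7 the differences ran from -0.24 for Cd4 to 0.24 for Cd3e, none had an unadjusted p under 0.05, and 0% of all probe sets were called. At day 14 Cd3e spanned 13.3 to 80.3 (median 51.4) on exposed and 8.55 to 58.3 (median 21.9) on unexposed arrays, a difference of 0.85 ± 0.38. It was the single member with an unadjusted p under 0.05 on that day, and 0.201% of all probe sets were called. Unexposed arrays of day 14 split into 33.3, 58.3 and 47.8 and a lower set of 8.55, 10.5 and 9.23, so the groups overlapped. Exposed replicate 6 was lowest of its group for Cd3g, Cd3e, Cd3d, Cd8b1 and Cd2, and its Gapdh 3′ to 5′ log2 ratio, 0.856, was the group's highest. Exposed arrays above every unexposed one were 7 of 8 for Cd3g and 6 of 8 for Cd3d and Cd8b1. They were 3 of 8 for Cd3e, 2 for Cd4, 1 for Cd8a and 0 for Cd2.

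At day 21, 4 of 8 members had an unadjusted p under 0.05 and 0% of all probe sets were called. Cd3g spanned 19.2 to 34.8 (median 25.4) on 6 exposed arrays and read 6.61 to 17.8 (median 14.9) on 5 unexposed ones. It was the single member without overlap, higher when exposed, against 0.394% of all probe sets, with a difference of 0.64 ± 0.24. Of these arrays 1 of 6 exposed and 2 of 5 unexposed had a high squamous score, with a summed squamous intensity of 283 to 3972 on exposed and 337 to 12990 on unexposed arrays, and without them Cd3g differed by 0.57. Cd8a spanned 7.33 to 17.9 on exposed and 1.17 to 9.67 on unexposed arrays (0.75 ± 0.23), near the floor of the array on most of them. Cd8b1 differed by 0.70 ± 0.31, Cd3e by 0.83 ± 0.43, Cd3d by 0.40 ± 0.15 and Cd2 by 0.16 ± 0.19, while Cd4 differed by -0.04 ± 0.25. The members' median was 0.11 at day 7, 0.17 at day 14 and 0.52 at day 21, beside -0.02, -0.00 and -0.01 over all probe sets. The change of effect between day 21 and day 7 called none of 8 members by limma, with 1 at an unadjusted p under 0.05 (Cd8a, 0.76 ± 0.33) and 0% of all probe sets called.

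**Figure D4:**
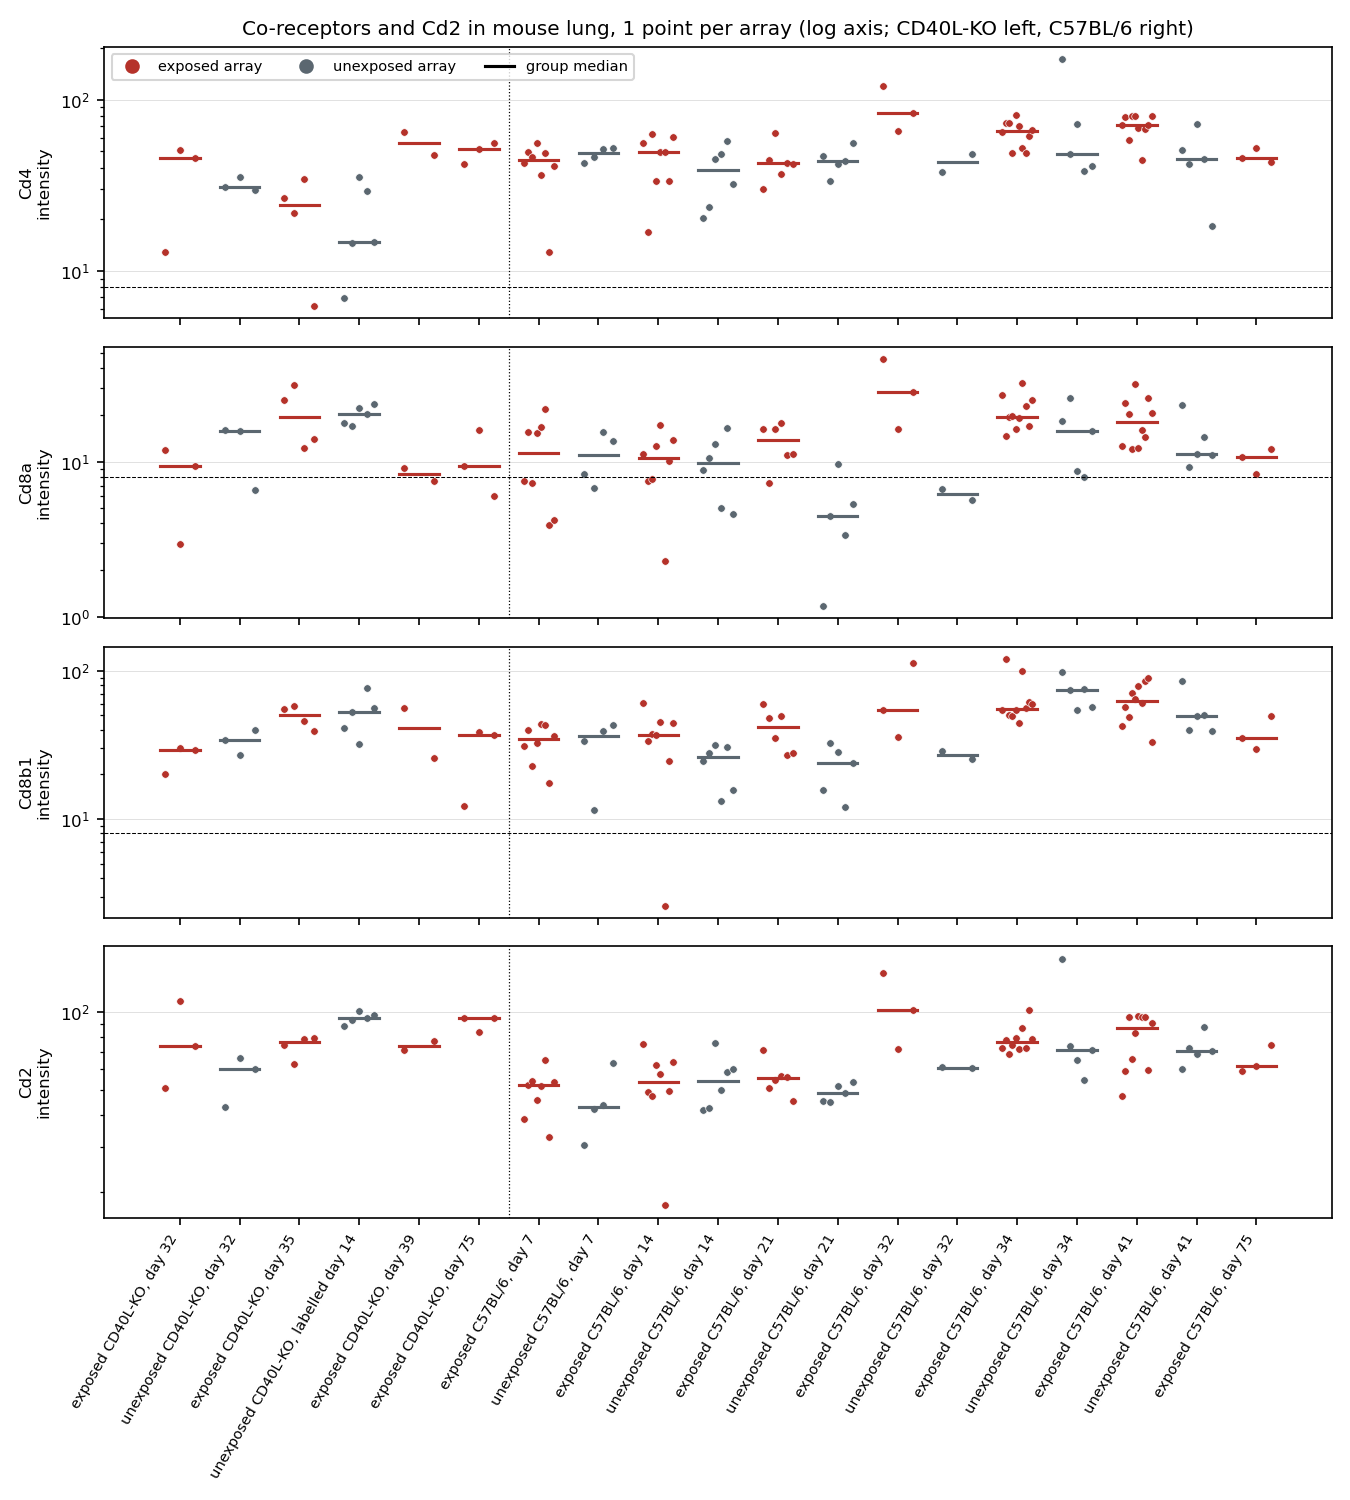
Intensity of Cd4, Cd8a, Cd8b1 and Cd2 (log axes) on each of the 95 arrays in the 19 groups, exposed in red and unexposed in grey, with group medians as bars and an intensity of 8 as a dashed line where values reach it. The group medians of Cd4 are lowest in both CD40L-KO groups of experiment 4, whose arrays read 6.22 to 34.4 exposed and 6.91 to 35.4 unexposed.

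In CD40L-KO mice exposed for 35 days, Cd3g read 28.8, 44.4, 27.3 and 26.7 on exposed and 18.6, 20.04, 22.3, 31.3 and 22.1 on unexposed arrays, a difference of 0.36 ± 0.16 (limma adjusted p = 0.542). The groups overlapped through a single unexposed array. Cd2 went the other way, with 74.8, 62.8, 78.5 and 79.6 on exposed and 88.7, 93.7, 101.5, 94.8 and 97.5 on unexposed arrays (-0.34 ± 0.09, limma adjusted p = 0.430). It was the single member without overlap, lower when exposed, against 1.82% of all probe sets. Cd3e differed by 0.51 ± 0.45, Cd4 by 0.10 ± 0.37, Cd3d by 0.06 ± 0.12, and both CD8 chains by -0.03 (SE 0.19 for Cd8a, 0.20 for Cd8b1). None of 8 members was called by limma, 2 had an unadjusted p under 0.05, and 0.00805% of all probe sets were called.

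Against C57BL/6 day 34, the exposure effect at CD40L-KO day 35 differed by -0.72 ± 0.50 for Cd3e, -0.60 ± 0.22 for Cd3d and -0.43 ± 0.32 for Cd3g. None of 8 members was called by limma, 1 (Cd3d) had an unadjusted p under 0.05, and 0.411% of all probe sets were called. The 2 experiments differ in strain, in the Y-linked transcripts and in squamous arrays together, which cannot be told apart.

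At day 75 the exposed strains were close on most members. Cd3e read 65.1, 68.4 and 75.8 in CD40L-KO and 79.9, 67.9 and 59.7 in C57BL/6 lungs, a difference of 0.02 ± 0.45 whose 95% interval ran from -0.94 to 0.98. Cd3g read 6.87, 33.3 and 27.1 in CD40L-KO and 21.1, 27.5 and 19.7 in C57BL/6 (-0.14 ± 0.44), with CD40L-KO replicate 1 far below the other arrays. Cd2 was the single member without overlap, higher in CD40L-KO (83.6 to 95.1) than in C57BL/6 (59.0 to 74.9), against 7.12% of all probe sets. None of 8 members was called by limma or had an unadjusted p under 0.05, and 0.66% of all probe sets were called.

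Exposed C57BL/6 lungs of day 75 held less of the CD3 gamma and delta chains and of Cd8a than those of day 32. Cd3g fell to 19.7 to 27.5 at day 75, against 40.7 to 224 at day 32, by 1.87 on the log2 scale (SE 0.44, limma adjusted p = 0.0101). Cd3d fell to 26.1 to 33.4, against 44.6 to 91.3, by 1.08 (SE 0.25, limma adjusted p = 0.0088). Cd8a fell to 8.34 to 12.1, against 16.3 to 46.0, by 0.98 (SE 0.29, limma adjusted p = 0.0325). Cd3e differed by -1.12 ± 0.45, Cd4 by -0.80 ± 0.30, Cd8b1 by -0.61 ± 0.36 and Cd2 by -0.59 ± 0.24.

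This comparison called 3 of 8 members, all lower, where 14.8% of all probe sets were called in either direction and 7.56% lower. Groups did not overlap for 5 of 8 members, all lower at day 75, against 17.3% of all probe sets. It shares its day 32 arrays with the comparisons above, and the day 75 lungs were male by Eif2s3y and Xist, so day, sex and any unstated experiment cannot be told apart. With the Gapdh 3′ to 5′ ratio as a covariate none of the 3 stayed called (limma adjusted p from 0.133 to 0.365), at differences of -1.45 for Cd3g, -0.96 for Cd3d and -0.66 for Cd8a. The ratio was 0.14 to 0.26 at day 75 and -0.10 to 0.04 at day 32, without overlap. Leaving out day 32 replicate 1, the array highest in all 3 CD3 chains, also ended all 3 calls (limma adjusted p from 0.0501 to 0.161). The Cd8a call was lost as well without any of the other arrays except day 32 replicate 2 (0.0684 to 0.0922) and with an offset of 2 (0.0632). Of the macrophage and dendritic cell markers 3 of 10 fell, with summed intensity 867 to 908 at day 75 and 1155 to 1940 at day 32, and of the NK markers 1 of 7 fell (194 to 201 at day 75, 205 to 518 at day 32). Of the B cell markers 2 of 9 rose (869 to 1091 at day 75, 724 to 790 at day 32), and the part of these lists was not tested.

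Exposed CD40L-KO lungs of day 75 were set against those of day 39 and against unexposed CD40L-KO lungs of day 32. Against day 39, none of 8 members was called by limma or had an unadjusted p under 0.05, and 2.13% of all probe sets were called. Cd3e (65.1 to 75.8 at day 75, 20.7 and 54.8 at day 39) and Cd2 (83.6 to 95.1 at day 75, 71.1 and 77.2 at day 39) did not overlap. Both of these 2 of 8 members were higher at day 75. Of all probe sets 19.4% did not overlap and were higher, and 19.9% did not overlap and were lower. Against unexposed day 32, Cd3e differed by 1.43 ± 0.45 (limma adjusted p = 0.0707) and Cd2 by 0.64 ± 0.24 (limma adjusted p = 0.131). None of 8 was called, 2 had an unadjusted p under 0.05, and 6.73% of all probe sets were called. Groups did not overlap for 3 members, Cd3e, Cd4 and Cd2, all higher at day 75, against 14.6% of all probe sets. The day 75 lungs had the male and the unexposed day 32 lungs the female pattern of Eif2s3y and Xist, so exposure, day and sex cannot be told apart here. Squamous and skeletal muscle markers, 3 of 9 and 3 of 10 called lower at day 75, moved with this comparison, as did 2 of 9 B cell and 3 of 10 macrophage and dendritic cell markers called higher, and their part was not tested.

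Ordered by mean level over the 19 groups, exposed C57BL/6 day 32 came first for Cd3g, Cd3e, Cd3d, Cd4, Cd8a and Cd2. The order runs across experiments, so a rank cannot tell experiment apart from day, strain and exposure. For Cd8b1 the unexposed C57BL/6 groups alone ran from 4.88 at day 21 to 6.29 at day 34. For Cd3g it averaged 6.81 ± 1.13 (SD, n = 3) on the log2(intensity + 8) scale, ahead of exposed day 34 at 6.11 ± 0.45 (n = 10) and exposed day 41 at 5.92 ± 0.24 (n = 10). The next group, unexposed C57BL/6 day 34 at 5.32 ± 0.45 (n = 5), lay beyond the spread within groups, 0.43, below the exposed group of day 41. Of the 18 neighbouring pairs in the order, only 2 differed by more than this spread for Cd3g, 1 each for Cd3e, Cd3d and Cd4, and none for Cd8a, Cd8b1 or Cd2. The lowest group for Cd3g, Cd3e, Cd3d, Cd8a and Cd8b1 was unexposed day 21, and its neighbours lay within the spread.

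Cd4 and Cd8b1 had orders of their own. For Cd4 the 2 groups of CD40L-KO experiment 4 stood at the bottom, exposed day 35 at 4.81 ± 0.69 (n = 4) and its unexposed controls at 4.71 ± 0.62 (n = 5). Their means lay beyond the spread within groups, 0.45, below every other group. Single arrays overlapped, reaching intensities of 34.4 and 35.4, against 29.5 to 35.4 in unexposed CD40L-KO day 32. Both groups of experiment 4 were low alike, so exposure did not separate them. They were male by the sex-linked transcripts, as were 3 groups with higher Cd4, exposed CD40L-KO of days 39 (5.99) and 75 (5.85) and exposed C57BL/6 of day 75 (5.78). For Cd8b1 unexposed C57BL/6 day 34 came first at 6.29 ± 0.31 (n = 5), within the spread of exposed days 34, 32 and 41. For Cd2 the unexposed CD40L-KO group labelled day 14 stood second at 6.69 ± 0.07 (n = 5), above the exposed day 35 group of its experiment at 6.35 ± 0.14 (n = 4).

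**Figure D5:**
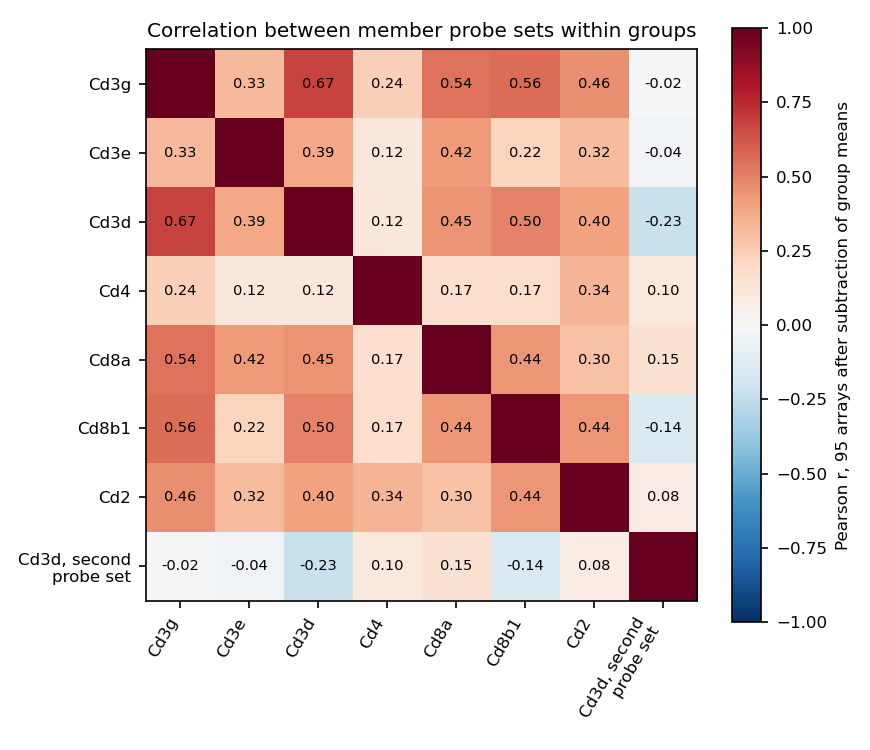
Pearson correlation between the member probe sets over 95 arrays after subtraction of group means, colour from -1 to 1. The highest is 0.67 for Cd3g with Cd3d, and Cd4 stays at 0.34 or below with every other member.

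Within groups the members moved together to different degrees, described here over 95 arrays that share array-wide effects such as RNA quality. Cd3g and Cd3d, the divergent neighbours on chromosome 9, had the highest Pearson r of any member pair, 0.67. Cd3g followed Cd8b1 (0.56) and Cd8a (0.54), and the CD8 chains followed each other at 0.44. Cd3e, from the same gene cluster, followed Cd3d at 0.39 and Cd3g at 0.33. Cd4 had 0.34 with Cd2 and 0.12 to 0.24 with the other 5 genes. The second Cd3d probe set ran at -0.23 against the first, so it did not track it at these intensities.

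Outside the members, Trbv1, a T cell receptor beta variable segment, had the pattern most like the members' mean, among 4880 probe sets with a single symbol and a mean log2 level of at least 6. Its Pearson r was 0.96 over the 19 group means and 0.77 over the 95 arrays within groups. Next over group means came Ly86 (0.94), AW112010 (0.93), Cd48 (0.93), the CD2 ligand in mouse, Psmb8 (0.92), a subunit of the immunoproteasome, Cd52 (0.92), Evi2a (0.91) and Arhgdib (0.90). Within groups the others were Coro1a (0.76), Selplg (0.74), Arhgdib (0.73), Ltb (0.70), Ptpn6 (0.70), Rac2 (0.68) and Cd52 (0.68). Arhgdib and Cd52 stood in both orders with Trbv1.

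Of 78 further genes of T cell receptor signalling and T cell identity, 54 had a probe set, read from the brightest one. The list is not confined to T cells: Itgae is also on the macrophage and dendritic cell list, and Klrd1 on the NK list. The cell type behind a call was not tested. At C57BL/6 day 34, 12 of 54 rose and none fell, with a median difference of 0.35, where 4.03% of all probe sets were called higher. The alternative settings were read for the members only, so the part of the uneven squamous arrays in these calls was not tested. The 6 largest were Tnfrsf4 (1.33 ± 0.28), the OX40 costimulatory receptor, Icos (1.07 ± 0.20), a costimulatory receptor of activated T cells, Cd6 (0.94 ± 0.15), Itgb2 (0.90 ± 0.19), an integrin chain shared by leukocytes, Lcp2 (0.81 ± 0.19), the SLP-76 adaptor below the receptor, and Cd44 (0.78 ± 0.24). Cd28, the costimulatory receptor, rose by 0.53 ± 0.15 (limma adjusted p = 0.0275). Among the genes not called, Cd247, the zeta chain, differed by 0.25 ± 0.13, and Zap70, the kinase that binds the phosphorylated chains, by 0.32 ± 0.18. The adaptor Lat differed by -0.22 ± 0.13 and Thy1 by 0.41 ± 0.16, also without a call.

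At C57BL/6 day 32, 3 of 54 rose, Cd52 (1.30 ± 0.22), Coro1a (1.12 ± 0.22) and Vav1 (0.94 ± 0.17), and none fell, with a median of 0.55. Macrophage and dendritic cell markers were also higher on these exposed arrays, as given above. At day 41, 4 of 54 rose, Ctla4 (0.85 ± 0.18), Lcp2 (0.83 ± 0.19), Cd5 (0.79 ± 0.19) and Cd6 (0.79 ± 0.15), and none fell. At day 14 Selplg alone rose (0.56 ± 0.11), and at days 7 and 21 none of 54 was called. In exposed CD40L-KO against exposed C57BL/6 lungs of day 32, 4 of 54 were called lower, Icos (-2.09 ± 0.41), Cd5 (-1.91 ± 0.32), Ctla4 (-1.63 ± 0.305) and Sh2d1a (-1.17 ± 0.21), and none higher. CD40L-KO exposure called none of 54 at day 32 or day 35. At C57BL/6 day 75 against day 32, 21 of 54 fell and none rose, led by Icos (-2.17 ± 0.36) and Tnfrsf4 (-1.94 ± 0.42). In the difference of exposure effects between CD40L-KO day 35 and C57BL/6 day 34, Cd6 alone was called (-1.01 ± 0.22). In CD40L-KO day 75 against unexposed day 32, 5 of 54 rose, among them Ptprc (1.47 ± 0.33), the CD45 phosphatase, and Ets1 (1.04 ± 0.17). Shares of all probe sets called the same way were 1.04% at C57BL/6 day 32, 0.636% at day 41 and 0.177% at day 14. They were 1.5% for exposed strains at day 32 and 7.56% for C57BL/6 day 75 against day 32. For the difference of effects the share was 0.338%, and for CD40L-KO day 75 it was 4.42%. In both day 75 comparisons day and sex cannot be told apart.

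Markers of immature thymocytes, the other abundant source of CD3, CD4 and CD8 transcripts, were called in none of the 18 comparisons (0 of 7 genes). Rag2 was below 8 on 92 of 95 arrays and Ptcra on 64, while Rag1 read 34.0 to 484. Summed over the 7 genes they read 275 to 331 on exposed and 353 to 392 on unexposed C57BL/6 arrays of day 32. Lymph node and lymphoid stroma markers were likewise called in none of the 18 (0 of 3 genes). NK and cytotoxic markers, which share Cd2 with T cells, were called in 2 of the 18, neither an exposed against unexposed comparison at the same day.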

How the data were processed

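Lung RNA was read on 95 Affymetrix arrays, 1 per sample. The values are intensities deposited by the authors. How they were summarised is not given in these sources. Each array's mean after trimming 2% of values was 100.05 to 100.07, so arrays share a scale, and the number of arrays limits the precision. Names come from the platform annotation: 10855 probe sets have 1 symbol, 396 several and 1236 none, and 10839 of the first were found in RefSeq.

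Of 12487 probe sets, 65 controls and 1 with a missing value were left out. The remaining 12421 were taken to log2(intensity + 8) and fitted with limma 3.58.1 (lmFit and eBayes, R 4.3.3) in sets of groups of the same experiment, or of days 32, 39 and 75. Benjamini-Hochberg adjustment ran over all 12421, and called means an adjusted p under 0.05. The fit was tested on simulated data with 200 changed genes. Groups came from the labels, which number replicates without saying whether numbers pair mice. Some same-numbered arrays deviated together and others did not: correlations ran from -0.405 to 0.459 and were over 0.1 for all pairs in no comparison. The numbers were therefore not taken as pairs, and a replicate block was run as an alternative. No 2 arrays were identical. Tables and figures were made with Python 3.11.15. All members were named, and other T cell genes by being called or by a fixed list. The members and lists were chosen with earlier results of these data known. Alternatives were offsets of 2 and 32, dim probe sets left out, quantile normalization, the brightest probe set per gene, 1 fit of all 95 arrays, a replicate block, squamous score or Gapdh ratio as covariate, squamous arrays left out and each array left out; the squamous score of 6 was chosen after seeing the data.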

Additional observations from a re-analysis of the deposited data

Results flagged for a closer look

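In 96 tests, 8 member probe sets in 12 groups of 4 to 10 arrays, 10 values stood far from the rest of their group. Chance gives about 1 in 20, or 4.8, for independent tests. Several of the 10 values lie on the same array, where members move together, so they do not count separate arrays. Values here are log2(intensity + 8). Exposed C57BL/6 day 14 replicate 6 was the lowest of its group for Cd3g (3.53, the nearest array at 4.98), Cd3e (4.41, nearest 5.62), Cd8b1 (3.41, nearest 5.02), Cd3d (3.91, nearest 4.89) and Cd2 (4.69, nearest 5.79). That single array was low in 5 of the 7 genes at once. Exposed C57BL/6 day 7 replicate 7 was lowest for Cd4 (4.38, nearest 5.47) and Cd3d (4.61, nearest 4.89). Unexposed C57BL/6 day 14 replicate 2 was lowest for Cd3d (4.48, nearest 4.82). Exposed CD40L-KO day 35 replicate 2 was highest for Cd3g (5.71, nearest 5.20), and unexposed C57BL/6 day 34 replicate 1 was highest for Cd2 (7.41, nearest 6.35).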

How the results depend on the processing

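Of 3148 recomputed member differences, none reversed a call, 51 lost one and 27 gained one. Only a difference called in the main fit could lose a call, so the 51 are not a share of all 3148. Another 174 differences, called neither before nor after, changed sign. Counts below are of called members, and medians are over the 8 probe sets, except without dim probe sets, where only 3 members (Cd3e, Cd4 and Cd2) were tested. For exposed against unexposed C57BL/6 at day 32 (1 called), the count was 0 without dim probe sets, which leaves Cd3d untested, and 0 with an offset of 2, with the replicate block, with the squamous score or Gapdh ratio as covariate, and without squamous arrays at a score of 7 or 6, and 4 with all 95 arrays in 1 fit. For exposed CD40L-KO against C57BL/6 at day 32 (2 called), it was 0 with an offset of 2, the squamous covariate or squamous arrays left out at 7 or 6, 1 with the replicate block or the Gapdh covariate, and 5 in 1 fit. Without dim probe sets the 2 calls were other members, Cd3e and Cd4 (adjusted p of 0.0484 and 0.0452). The difference of the strains' effects gave 2 in 1 fit. At C57BL/6 day 34 (3 called), the count was 1 without dim probe sets, which drops 2 of the 3, with the squamous covariate or without arrays of score 7, and 0 without those of score 6. The replicate block there kept 2 calls and lost Cd3g (adjusted p = 0.125). At day 41 it was 1 without squamous arrays at either score. CD40L-KO day 75 against unexposed day 32 gave 1 without dim probe sets, and C57BL/6 day 75 against day 32 gave 0 with the Gapdh covariate and 1 without dim probe sets, which is Cd4 (adjusted p = 0.0477), as the 3 called members were not tested there. Other causes were not tested.

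With an offset of 32 the median was 0.68 for C57BL/6 day 32, -0.76 for the difference of effects, -0.74 for exposed strains at day 32, 0.26 at day 21 and -0.56 for day 75 against day 32. Without dim probe sets it was 0.91 for C57BL/6 and 0.38 for CD40L-KO at day 32, 0.56 at day 41, 0.16 at day 21 and 0.64 for CD40L-KO day 75 against unexposed day 32.

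Leaving out each array in turn gave 0 to 5 called members for C57BL/6 day 32 (median 1.06 to 1.48), 0 to 5 for exposed strains at day 32 (-1.42 to -0.99), 0 to 2 for the difference of effects (-1.40 to -0.75), 2 to 3 at day 34 (0.056 without unexposed replicate 4 to 0.38 without unexposed replicate 1), 0 to 1 for CD40L-KO day 75 against unexposed day 32 (0.21 to 0.62) and 0 to 5 for C57BL/6 day 75 against day 32. The median for CD40L-KO day 32 ran from -0.042 to 0.36. The counts of 5 came without exposed C57BL/6 day 32 replicate 2. Where a group kept 1 array, it was taken to vary like the others. Dim members, Cd8a and the second Cd3d probe set above all, are limited by signal near the floor.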
